A study of Mus musculus with 3 samples.

Results

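Ectopic tissue masses that had formed around BMP2 in mice given an activin A neutralizing antibody were compared with masses around the carrier gel alone. The question was which part of the response to BMP2 is present when activin A is neutralized. The members were all cells of these 2 single-cell libraries with at least 500 UMIs, at least 300 genes and a mitochondrial share of UMIs up to 15%, where a UMI is a molecular tag that counts 1 captured mRNA molecule. They numbered 15190 of the 21148 cells in the series, with 9223 in the Matrigel library and 5967 in the antibody library. All mice were of the CD1 strain, an outbred stock, and all masses were taken 5 days after implantation. The Matrigel group received Matrigel, a gel of basement membrane proteins, without BMP2, and the labels name no antibody or IgG for it. The antibody group received Matrigel with recombinant human BMP2 and was treated systemically with the neutralizing antibody. Beside this pair there was a library of 5958 cells from masses around the same BMP2 implants in mice that received pre-immune IgG as the control, and it is given throughout. The sources used here give neither the age of the mice nor how many animals each library came from.

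BMP2 binds type I and type II serine/threonine kinase receptors, which phosphorylate SMAD1 and SMAD5, and the SMAD complex switches on the Id genes and the inhibitory SMADs. Implanted in soft tissue, BMP2 drives local fibroblast-like cells through cartilage to bone, a sequence called heterotopic ossification. Activin A, a dimer of the protein encoded by Inhba, signals through SMAD2 and SMAD3 and can also bind the type I receptor ACVR1, in a complex that does not signal well. An antibody that captures activin A therefore acts on a ligand outside the cell, and leaves BMP2 itself in place.

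The 2 libraries compared held 44252421 and 38163880 UMIs for Matrigel and antibody, and the IgG library held 46317250. Each group had 1 library, so there were no replicates, no test was made and no p-value is given. Brackets hold 95% intervals, which cover counting error only and not the spread between animals or preparations. The filters removed 26 barcodes from the Matrigel library, 107 from the IgG library and 146 from the antibody library. The Matrigel and antibody libraries shared 15 cell barcodes, and the other pairs shared 19 and 7. In all 3 libraries the RNA was that of female animals, with Xist in 83.0% to 86.6% of cells.

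Mesenchymal cells, the fibroblast-like cells that make matrix, were fewer in the antibody masses. They were taken as cells with at least 1% of their UMIs from the fibrillar collagen genes Col1a1, Col1a2 and Col3a1. By this rule 650 of 5967 cells (10.9%, 10.1 to 11.7) were mesenchymal in the antibody library and 2162 of 9223 (23.4%, 22.6 to 24.3) in the Matrigel library, a difference of -12.5 points (-13.7 to -11.4). The IgG library had 1556 mesenchymal cells (26.1%, 25.0 to 27.3). The threshold fell in a sparse range. Between 0.9% and 1% of collagen UMIs there were 7 Matrigel and 7 antibody cells, and between 1% and 1.1% there were 9 and 5. In the mesenchymal cells, 11 mesenchymal markers, the classing collagens among them, held a median of 7.53% of a cell's UMIs in the Matrigel library and 5.59% in the antibody library. The 10 macrophage markers held medians of 0.0135% and 0.00831% there, and those of T cells, neutrophils, endothelial cells and erythroid cells held medians of 0. The B-cell list held medians of 0.0577% and 0.0473%. Of its summed 694 and 533 CPM, Ebf1, a factor that fibroblasts also make, gave 685 and 524 CPM. The plasma-cell list held 0.0237% and 0.0268%, which came almost wholly from Xbp1 and Sdc1, also made by fibroblasts, at 209 and 59.8 CPM in Matrigel and 166 and 175 CPM with the antibody.

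Macrophages, with under 1% collagen UMIs and at least 1 UMI of the receptor genes Csf1r or Adgre1, made up 65.2% (64.2 to 66.2) of Matrigel cells and 54.2% (52.9 to 55.5) of antibody cells, beside 55.1% in the IgG library. The difference of -11.0 points (-12.6 to -9.40) turned to 2.34 points when lymphoid cells were left out of the total, and to 2.13 points when only cells with at least 2000 UMIs and 1000 genes were counted. In these macrophages the markers of their own type held medians of 2.57% and 2.09% of a cell's UMIs, and the mesenchymal markers 0.0435% and 0.0149%. Cells in neither class made up 11.4%, 18.7% and 34.9% of the Matrigel, IgG and antibody libraries. Lymphocytes stood out among them. At least 2 UMIs of the T-cell receptor genes Cd3d, Cd3e and Cd3g were found in 29, 157 and 693 of these cells, in that order, which is 0.314%, 2.64% and 11.6% of each library. For the B-cell genes Cd79a, Cd79b and Ms4a1 the counts were 1, 6 and 515 cells, or 0.0108%, 0.101% and 8.63%. With such lymphoid cells left out of the total, the mesenchymal share differed by -9.90 points.

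**Figure D1:**
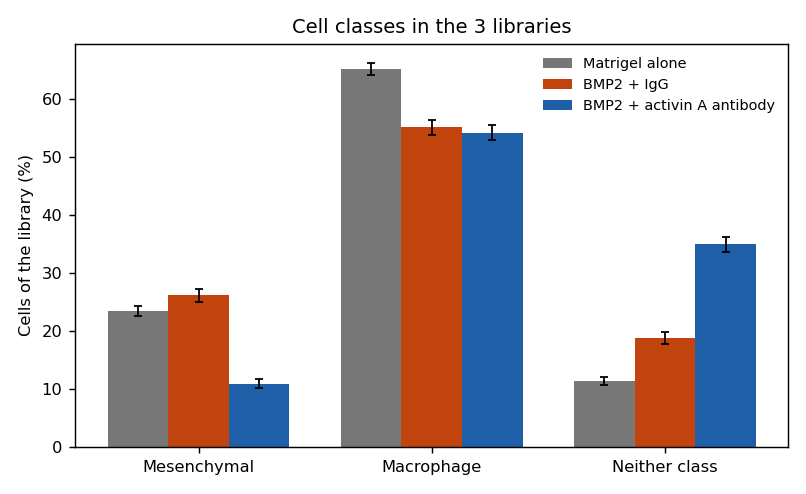
Share of each library's cells in the mesenchymal class, the macrophage class and neither class, for 1 library per group. Bars show the share in percent and whiskers the exact 95% interval for counting error; the antibody library has the lowest mesenchymal share (10.9%) and the highest share in neither class (34.9%).

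Depth differed between the libraries within each class. Median UMIs per mesenchymal cell were 8906.5, 17124.5 and 19314 in the Matrigel, IgG and antibody libraries, and per macrophage 3106, 3697 and 4867.5. Levels are therefore given as CPM, the UMIs of a gene per 1000000 UMIs summed over a class in a library. The 3 values in a row stand for the Matrigel, IgG and antibody libraries in that order, and a ratio is antibody over Matrigel unless another is named. The 2 comparisons with Matrigel share that library, so their values are given side by side and are not independent. Genes with 20 UMIs or more in either library of a pair count as measured, and those that differed by a factor of 2 or more are called higher or lower.

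Among 13025 genes measured in mesenchymal cells, 667 (5.12%) were called higher and 1432 (11.0%) lower in the antibody library than in the Matrigel library. The median log2 ratio of all these genes was -0.16, which is the level against which the list medians below are set. In the IgG library 7.87% of genes were called higher and 13% lower than in Matrigel. Between the antibody and IgG libraries 3.93% were called higher and 4.8% lower. The 12 genes with the highest ratios among those at 100 CPM or more held 3 genes of cartilage and bone matrix, a secreted hormone precursor, the activin subunit gene Inhba, matrix glycoproteins and a globin gene. The 12 genes with the lowest ratios were led by the imprinted gene Dlk1, which encodes a membrane protein of immature mesenchyme, and by Eln, which encodes elastin.

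**Figure D2:**
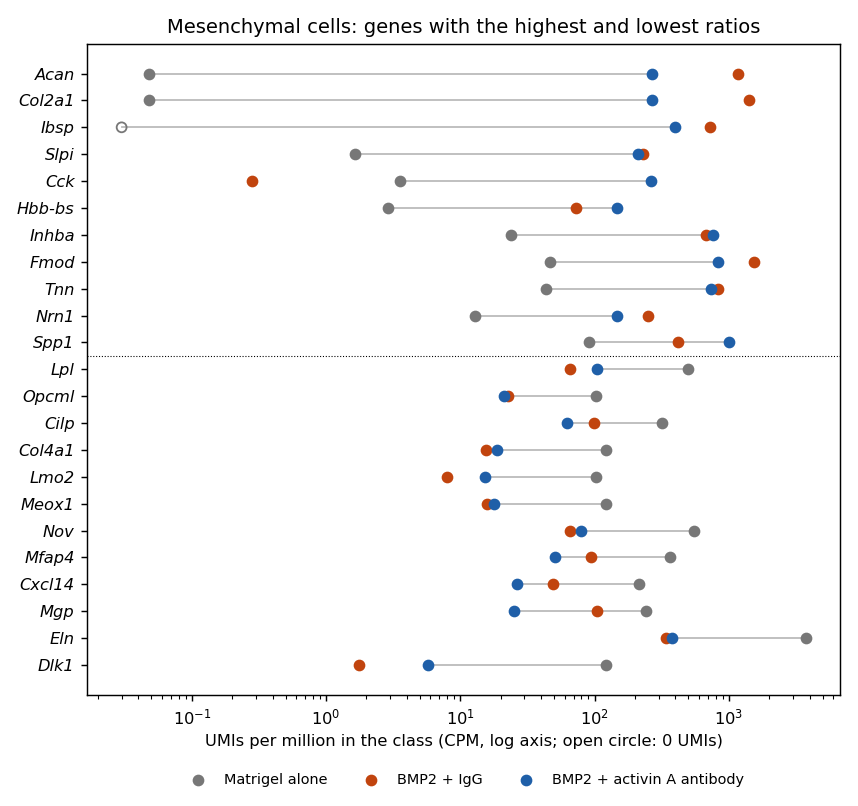
Level in mesenchymal cells of 11 of the 12 genes with the highest (above the dotted line) and the 12 with the lowest antibody over Matrigel ratios, as CPM on a log axis, with 1 point per library and a grey line joining Matrigel and antibody. Ibsp had 0 UMIs in the Matrigel library (open circle at the left edge); Cck stands apart, at 3.56, 0.283 and 266 CPM in the Matrigel, IgG and antibody libraries.

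The direct targets of BMP receptors were higher in antibody mesenchymal cells than in Matrigel cells. Of 13 measured members, 6 were called higher and 0 lower, and the median log2 ratio was 0.75. Id3, which encodes an inhibitor of basic helix-loop-helix transcription factors, was at 244, 663 and 655 CPM, and its ratio was 2.69 (2.60 to 2.78). Its relative Id1 was at 44.1, 104 and 124 CPM, a ratio of 2.81 (2.59 to 3.04). Both BMP2 libraries stood above Matrigel for these Id genes, and they lay close to each other. Antibody over IgG was 0.988 (0.964 to 1.01) for Id3 and 1.19 (1.12 to 1.26) for Id1.

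The feedback inhibitors of the pathway were also higher. Smad7, an inhibitory SMAD that acts on both branches, was at 52.3, 98.5 and 132 CPM, a ratio of 2.53 (2.35 to 2.73). Smad6, the inhibitory SMAD of the BMP branch, was at 13.8, 23.8 and 23.3 CPM, and its ratio of 1.68 (1.43 to 1.98) did not reach 2. Bambi, a pseudoreceptor that lacks the kinase, was at 7.89, 68.0 and 41.5 CPM and was 5.26 (4.41 to 6.29) times the Matrigel level. Id2 departed from its relatives, at 142, 158 and 124 CPM and a ratio of 0.874 (0.823 to 0.928). For the list as a whole the IgG library had a median log2 ratio to Matrigel of 1.01, and antibody over IgG had -0.21, with 0 of 14 members higher and 2 lower.

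Of 4 BMP targets looked up, Id1 had no promoter window and the window of Id3 lay in annotated exons. The stretches before the RefSeq starts of the remaining targets, Id2 and Smad6, are shown. They are from RefSeq on GRCm38.p6, 5′ to 3′ on the gene's strand, which is the minus strand for both, and bases in annotated exons were left out. Starts are those of RefSeq. The GENCODE model of Id2 begins further upstream, at 25097140, so its stretch lies inside that model but outside its exons. Capitals mark GGCGCC, the GC-rich motif bound by SMAD1/5 complexes, and GTCT or its complement AGAC, the SMAD box, which do not overlap here. The Id2 stretch is chr12:25096254-25096342 and holds 1 GGCGCC. It is 89 bases long and ends 161 bases before the RefSeq start. The Smad6 stretch is chr9:64022060-64022309 and holds 0 GGCGCC and 1 GTCT.
Id2: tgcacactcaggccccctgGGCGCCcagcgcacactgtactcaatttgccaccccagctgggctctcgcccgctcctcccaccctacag
Smad6: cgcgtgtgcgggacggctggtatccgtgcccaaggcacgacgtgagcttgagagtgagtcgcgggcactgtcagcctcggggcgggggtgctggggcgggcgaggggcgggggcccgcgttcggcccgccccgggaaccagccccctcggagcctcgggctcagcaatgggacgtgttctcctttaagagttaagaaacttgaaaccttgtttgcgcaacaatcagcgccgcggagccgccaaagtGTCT
Of 32536 promoter windows of 250 bases in the same table, 9.65% held GGCGCC on either strand and 82.9% held GTCT or AGAC. The Id2 stretch is shorter than these windows. A match is a description of the letters only and was not set against the levels of the genes.

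Most receptors and SMADs of these ligands were not called in either direction in antibody cells. Of 17 measured receptors and SMADs 0 were called higher and 4 lower, with a median log2 ratio of -0.61. Acvr1, the type I receptor that is mutated in inherited heterotopic ossification, had the highest ratio of the list, at 36.5, 85.2 and 66.2 CPM and 1.81 (1.65 to 2.00). Tgfbr2, the type II receptor for TGF-beta, was at 782, 151 and 334 CPM, 2.34 (2.27 to 2.42) times lower than in Matrigel. Its level in the antibody library lay between those of the other libraries. Tgfbr3, the co-receptor betaglycan, followed the same order at 186, 30.6 and 70.5 CPM. Bmpr2, a type II BMP receptor, was at 102, 104 and 94.0 CPM with a ratio of 0.921 (0.859 to 0.987). The 2 type II activin receptors Acvr2a and Acvr2b had ratios of 0.808 and 0.955.

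Inhba itself, which lies at chr13:16011851-16031621 on mm10 and encodes the subunit of activin A, had 23.9, 675 and 760.3 CPM. The antibody level was 31.7 (29.0 to 34.8) times Matrigel and 1.13 (1.1 to 1.15) times IgG. Within the mesenchymal class, the transcript of the neutralized ligand was thus about as abundant with the antibody as with IgG. This does not hold for the libraries as a whole, since the class made up 10.9% of antibody cells and 26.1% of IgG cells. The 10 cells with the most Inhba UMIs held 12.2% of them with IgG and 23.6% with the antibody. After each cell had been thinned to 1000 UMIs, 1.54%, 30.3% and 29.0% of mesenchymal cells held an Inhba UMI, against 0.0866%, 0.663% and 0.285% of macrophages. Without thinning the mesenchymal shares were 10.9%, 73.5% and 58.3%. Fstl3, an extracellular activin antagonist, was at 15.7, 57.0 and 57.7 CPM, a ratio of 3.68 (3.23 to 4.20). Fst, the related antagonist follistatin, went the other way at 139, 75.5 and 85.9 CPM and a ratio of 0.618 (0.577 to 0.661). Both antagonists were at near levels in the 2 BMP2 libraries.

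Among 23 measured ligands and antagonists 3 were called higher and 6 lower, with a median log2 ratio of -0.47. The ones higher beside Inhba and Fstl3 included Tgfb2, a TGF-beta isoform, at 56.2, 152 and 139.6 CPM. The BMP antagonist Grem1 was at 28.8, 19.4 and 4.01 CPM, 7.17 (5.45 to 9.61) times below Matrigel and 4.85 (3.68 to 6.50) times below IgG. Grem1 was thus lowest with the antibody. The ligand Gdf6 was at 6.97, 0.530 and 0.143 CPM, and the antibody value rests on 2 UMIs, for a ratio of 0.0205 (0.00246 to 0.0756). The endogenous ligand genes Bmp6 and Bmp7 were at 18.9, 0.636 and 5.80 and at 13.1, 1.13 and 5.80 CPM, lower in both BMP2 libraries than in Matrigel.

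Targets of the TGF-beta and activin branch were called in both directions in the class as a whole. Of 16 measured members 2 were called higher and 2 lower, beside 5.12% and 11.0% of all genes. The median log2 ratio was -0.31, beside -0.26 for IgG over Matrigel and 0.12 for antibody over IgG. Tgfbi, a secreted adhesion protein, was at 122, 740.2 and 610.5 CPM and 4.99 (4.77 to 5.22) times Matrigel. Pmepa1, a feedback inhibitor of SMAD2/3 signalling, was at 567, 581 and 458 CPM and Skil, a SMAD co-repressor, at 56.5, 46.0 and 45.8 CPM. Their ratios were 0.808 (0.783 to 0.833) and 0.810 (0.734 to 0.893), so neither was called. Nov, a matricellular CCN protein, was at 548, 65.3 and 79.7 CPM, 6.88 (6.46 to 7.32) times below Matrigel.

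Cartilage regulators were above Matrigel with the antibody and below IgG. Sox9, the transcription factor that specifies chondrocytes, was at 53.4, 434 and 130.2 CPM, 2.44 (2.26 to 2.63) times Matrigel and 3.33 (3.17 to 3.50) times lower than IgG. Its partners Sox5 and Sox6, which assist it at cartilage genes, were at 11.6, 41.4 and 25.6 and at 0.192, 35.3 and 7.95 CPM. Wwp2, a ubiquitin ligase gene that hosts the cartilage microRNA miR-140, was at 25.9, 517 and 195 CPM. In each of these genes the antibody value lay between the other libraries. Of 8 measured regulators 6 were called higher and 0 lower than in Matrigel, and the median log2 ratio was 1.35. The medians were 2.71 for IgG over Matrigel and -0.84 for antibody over IgG.

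Several cartilage matrix genes were almost absent from Matrigel cells and present with the antibody. Acan, which encodes the proteoglycan aggrecan, lies at chr7:79053483-79115099 and had 1 UMI in the Matrigel library and 3734 in the antibody library. Its levels were 0.0481, 1176 and 268 CPM, a ratio of 5561 (997 to 219700.0). Col2a1, the collagen of cartilage, also had 1 UMI in the Matrigel library, and its levels were 0.0481, 1418 and 266 CPM. Col9a1 and Hapln1, a collagen on the fibril surface and the link protein of aggrecan, had 0 UMIs in Matrigel cells. Set against 3 counts, the floor used for each class and library, they were at least 282 and 154 times higher with the antibody, at 40.6 and 22.3 CPM. Of 15 measured members 13 were called higher and 0 lower than in Matrigel, with a median log2 ratio of 4.92. Matn2 and Col27a1 were at Matrigel levels, with ratios of 0.961 and 0.973.

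Against the IgG library the same list was lower. There 16 of 18 measured members were called lower and 1 higher, with a median log2 ratio of -2.41. Acan was 4.40 (4.25 to 4.55) times and Col2a1 5.32 (5.15 to 5.50) times lower with the antibody than with IgG. Comp, a thrombospondin of cartilage and tendon, was at 0.529, 305 and 50.9 CPM, and Col11a1, the minor fibrillar collagen of cartilage, at 20.5, 882 and 168 CPM. Prg4, which encodes the lubricant protein of joint surfaces, was the exception at 25.6, 77.3 and 235 CPM, highest with the antibody at 9.16 (8.35 to 10.1) times Matrigel and 3.04 (2.88 to 3.21) times IgG.

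In the antibody library most Col2a1 UMIs came from few cells, while those of Acan and Sox9 were less concentrated. The 10 cells with the most UMIs of a gene held 81.4% of the Col2a1 UMIs, 37.4% of the Acan UMIs and 17.9% of the Sox9 UMIs. With IgG they held 15.9%, 6.13% and 5.14%, in a class of 1556 cells against 650 with the antibody. At 1000 UMIs per cell, an Acan UMI was found in 0%, 38.6% and 10.8% of mesenchymal cells, where 0 of 2083 thinned Matrigel cells allows up to 0.144% of cells with a UMI at this depth, which is no limit on cells that express the gene. The shares in macrophages were 0%, 1.1% and 0.0952%. For Col2a1 the thinned shares were 0%, 19.1% and 4.28% in mesenchymal cells and 0%, 2.18% and 0.349% in macrophages, and for Sox9 4.85%, 29.8% and 10.9% and 0.0520%, 0.631% and 0.0635%. The order of the libraries in the mesenchymal shares was that of the levels.

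Bone-forming genes were higher with the antibody, and nearer to IgG than the cartilage matrix was. Of 13 measured members 7 were called higher and 1 lower, with medians of 1.14 for antibody over Matrigel, 1.35 for IgG over Matrigel and -0.40 for antibody over IgG. Runx2, the master regulator of osteoblasts, was at 32.7, 83.6 and 72.0 CPM, 2.20 (2.00 to 2.43) times Matrigel. Sp7, the osteoblast factor osterix, was at 1.35, 102 and 70.8 CPM and 52.6 (36.2 to 79.6) times Matrigel. Alpl, the phosphatase needed for mineral, was at 0.577, 94.7 and 29.5 CPM. Ibsp, which encodes the mineral-binding bone sialoprotein, had 0 UMIs in Matrigel and was at 726 and 395 CPM with IgG and antibody, at least 2737 times higher with the antibody. Of its UMIs with the antibody, 70.3% lay in 10 cells. Spp1, osteopontin, departed from this order, at 91.4, 416 and 1011 CPM. It was 11.1 (10.5 to 11.6) times Matrigel and 2.43 (2.37 to 2.49) times IgG. Omd, osteomodulin, was the member called lower, at 19.7, 18.4 and 8.74 CPM.

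Other genes with the highest ratios encoded secreted proteins and a haemoglobin chain. Cck encodes the precursor of the peptide hormone cholecystokinin and lies at chr9:121489824-121495694. At 3.56, 0.283 and 266 CPM it was 74.6 (59.3 to 95.2) times Matrigel and 939 (476 to 2176) times IgG. It was present in 0.240%, 0% and 7.61% of thinned mesenchymal cells and 0.0173%, 0.0316% and 0.0952% of thinned macrophages, and 45.0% of its UMIs with the antibody lay in 10 cells. Slpi, a secreted protease inhibitor, was at 1.64, 228 and 209.7 CPM, with 65.6% of the antibody UMIs in 10 cells. Nrn1, neuritin, was at 12.8, 248 and 148 CPM. Hbb-bs, a haemoglobin chain of red cells, was at 2.89, 73.1 and 148 CPM. Its log2 ratio of 5.68 to Matrigel became 2.9 when the cells with the highest doublet scores were left out. The 10 richest cells held 92.6% of its antibody UMIs, and the summed erythroid markers were at 6.30, 131 and 207 CPM in these cells.

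Tnn and Fmod were broad rather than confined to few cells. Tnn, which encodes tenascin-N, was at 43.2, 833 and 733 CPM, 16.9 (15.8 to 18.2) times Matrigel, with 8.03% of the antibody UMIs in 10 cells. Fmod, the small proteoglycan fibromodulin of tendon and cartilage, was at 46.6, 1548 and 828 CPM and 17.8 (16.6 to 19.0) times Matrigel. After thinning, Tnn was found in 2.16%, 48.0% and 36.6% of cells and Fmod in 2.98%, 64.0% and 36.6%. Macrophage shares were 0.0347%, 0.947% and 0.190% for Tnn and 0.0347%, 1.39% and 0.412% for Fmod. Tnc, tenascin-C, was at 758, 2292 and 1590.0 CPM. The list of tendon genes and tenascins had 3 members called higher and 2 lower of 9, and its median of -0.10 became 0.0079 with scaling by the median of ratios. Scx, the tendon transcription factor scleraxis, was at 4.76, 37.8 and 8.24 CPM, and Thbs4, a tendon thrombospondin, at 107, 10.4 and 23.8 CPM.

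Genes of fibroblast progenitors, the adventitial-type cells that carry Pi16, Dpp4 and Cd34, were lower in the antibody library than in Matrigel. Of 20 measured members 14 were called lower and 0 higher, with a median log2 ratio of -1.35. IgG over Matrigel had a median of -2.62, and antibody over IgG one of 1.17, with 13 members called higher and 0 lower. Pi16, a peptidase inhibitor, was at 870.5, 80.4 and 364 CPM, 2.39 (2.32 to 2.47) times below Matrigel and 4.52 (4.30 to 4.76) times above IgG. Dpt, the matrix protein dermatopontin, was at 1944, 301 and 650.4 CPM and Clec3b, tetranectin, at 888, 70.4 and 329 CPM. The antibody value lay between the others for each of these. Pdgfra, the receptor that marks the fibroblast lineage, was at 243, 88.0 and 153 CPM with a ratio of 0.629 (0.598 to 0.662). Dlk1 was low in both BMP2 libraries, at 122, 1.77 and 5.73 CPM.

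Soft connective tissue matrix was lower for some genes and even for others. Eln was at 3778, 343 and 375 CPM, 10.1 (9.79 to 10.3) times lower with the antibody than in Matrigel. Over the whole class it was about level with IgG. Mgp, the inhibitor of calcification matrix Gla protein, was at 241, 104 and 25.0 CPM, 9.64 (8.64 to 10.8) times below Matrigel and 4.17 (3.73 to 4.67) times below IgG. Mfap4, a protein of elastic microfibrils, was at 364, 94.2 and 50.6 CPM, and Fbn1, fibrillin-1, at 3287, 609 and 1248 CPM. These elastic fibre genes were all below Matrigel with the antibody. Fn1, fibronectin, was at 8275, 9678 and 8662 CPM and Postn, periostin, at 2658, 3676 and 2929 CPM, with ratios of 1.05 (1.04 to 1.05) and 1.1 (1.09 to 1.12). Of 24 measured interstitial matrix genes 1 was called higher, Col12a1, and 8 lower, with a median of -0.27. Cilp, a matrix protein that binds growth factors, was at 321, 98.5 and 62.0 CPM, and Col4a1, a basement membrane collagen, at 122, 15.7 and 18.7 CPM.

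Matrix-degrading enzymes and their inhibitors had 2 members called higher and 5 lower of 18, with a median of -0.54. Timp1, an inhibitor of metalloproteinases, was at 678, 1349 and 2328 CPM, 3.43 (3.37 to 3.50) times Matrigel and 1.73 (1.70 to 1.75) times IgG. Timp2 and Timp3, its relatives, were at 1616, 436 and 626 and at 636, 257 and 259 CPM, lower in both BMP2 libraries. Mmp13, the collagenase of hypertrophic cartilage and bone, was at 0.144, 25.7 and 10.2 CPM, with 3 UMIs in the Matrigel library and a ratio of 70.5 (23.6 to 346).

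Signalling genes outside the TGF-beta family differed between lists. The insulin-like growth factor axis had 5 of 8 members called lower, 0 higher and a median of -1.23. Igf1, the growth factor itself, was at 164, 75.6 and 39.2 CPM and Igfbp6, a binding protein, at 1883, 305 and 789 CPM. Both were below Matrigel with the antibody. Of 20 Wnt pathway genes 4 were called higher and 8 lower. The secreted Wnt inhibitor Dkk2 was at 74.8, 4.38 and 7.24 CPM and Sfrp1, another, at 459, 298 and 144 CPM, whereas Frzb, a Wnt inhibitor of cartilage, was at 0.722, 90.1 and 23.4 CPM and the ligand Wnt5a at 39.1, 62.1 and 102 CPM. The feedback target Axin2 was at 16.9, 4.49 and 4.01 CPM, 4.22 (3.18 to 5.70) times below Matrigel. Pdgfa, a platelet-derived growth factor chain, was at 29.0, 49.3 and 88.5 CPM, and Fgfr3, the fibroblast growth factor receptor of growth plate cartilage, at 0.770, 43.2 and 13.7 CPM. Their list had 2 members called higher and 5 lower of 15. Of 10 Hedgehog and Notch genes 1 was called higher, Heyl, and 1 lower, Gli2, beside 5.12% and 11.0% of all genes. Gli2 is a transcription factor of the Hedgehog pathway and was at 5.10, 1.31 and 0.860 CPM, and Heyl, a Notch target, was at 0.673, 1.1 and 2.29 CPM.

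Adipogenic and complement genes were lower with the antibody in the class as a whole. Of 12 adipogenic members 8 were called lower and 1 higher, at a median of -1.45, but 7 members were below 10% of their level in another class of the same library, where free RNA could set them, and the median without these was -0.30. Lpl, lipoprotein lipase, was at 494, 65.2 and 105 CPM, 4.70 (4.45 to 4.97) times below Matrigel. Fabp5, a fatty acid carrier, was the member called higher at 162, 877 and 688 CPM. Of 13 complement genes 8 were called lower and 0 higher, with a median of -1.08. Free RNA could set 6 of the 13, and the median without these was -0.86. C1s1, a protease of the classical pathway, was at 418, 68.1 and 164 CPM. C3, the central component, was at 645, 203 and 579 CPM and a ratio of 0.898 (0.874 to 0.923). Summed macrophage markers in the mesenchymal cells were at 971, 363 and 337 CPM, and their part in the C1q values was not tested.

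The median of the contractile genes lay nearer to Matrigel than to IgG, while single genes differed in this. Over the whole class, Acta2, smooth muscle actin, was at 188, 845 and 411 CPM. It was 2.19 (2.10 to 2.28) times Matrigel and 2.06 (2.00 to 2.12) times lower than IgG. Tagln, transgelin, was at 132, 299 and 147 CPM with a ratio of 1.11 (1.05 to 1.18). Tpm2, a tropomyosin, was at 185, 520.2 and 490.3 CPM, near in the 2 BMP2 libraries. Of 10 measured members 4 were called higher and 0 lower than in Matrigel, at a median of 0.34. Against IgG 6 of 11 were called lower and 0 higher, at a median of -1.03, and the median of IgG over Matrigel was 1.18.

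Genes of cell division and of glycolysis had near medians in the 2 BMP2 libraries over the whole class. Of 22 proliferation genes 3 were called higher and 1 lower than in Matrigel, at medians of 0.53 and, for IgG over Matrigel, 0.57. Birc5, survivin, was at 50.8, 101 and 109 CPM and Top2a, a topoisomerase of dividing cells, at 100.5, 137 and 108 CPM. The hypoxia and glycolysis list had 2 called higher and 1 lower of 20, at medians of 0.52 and 0.83. Gapdh, a glycolytic enzyme, was at 1624, 3376 and 3231 CPM, a ratio of 1.99 (1.96 to 2.02). Adm, the hypoxia-induced peptide adrenomedullin, was the member called lower at 86.6, 52.3 and 30.7 CPM.

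Immediate early genes separated the BMP2 libraries from each other more than the antibody library from Matrigel. Of 19 measured members 0 were called higher and 1 lower than in Matrigel, at a median of -0.27. Against IgG 9 of 19 were called higher and 0 lower, at a median of 0.98. Fos, a subunit of the AP-1 factor, was at 157, 66.3 and 107 CPM and Dusp1, a MAP kinase phosphatase, at 205, 41.4 and 132 CPM. These genes also respond to tissue dissociation, and the part of handling in their values was not tested. Interferon-stimulated genes had 0 called higher and 2 lower of 18, at a median of -0.56. Their share called lower was near the 11.0% of all genes. Ifi27l2a, an interferon-induced mitochondrial protein gene, was at 601, 105 and 313 CPM.

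Chemokines and cytokines of the mesenchymal cells had 6 members called higher and 8 lower of 30, at a median of -0.34. Free RNA from other classes could set 12 of them. Il11, a cytokine of the interleukin 6 family, was at 12.9, 24.8 and 83.8 CPM, 6.48 (5.67 to 7.42) times Matrigel and 3.38 (3.07 to 3.71) times IgG. Cxcl12, the ligand of CXCR4, was at 304, 68.4 and 84.5 CPM and Csf1, the macrophage growth factor, at 304, 90.5 and 139.8 CPM. Il11 was highest with the antibody, whereas Cxcl12 and Csf1 were below Matrigel in both BMP2 libraries. Cxcl14, an orphan chemokine, was at 216, 48.9 and 26.3 CPM, 8.21 (7.38 to 9.16) times below Matrigel.

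**Figure D3:**
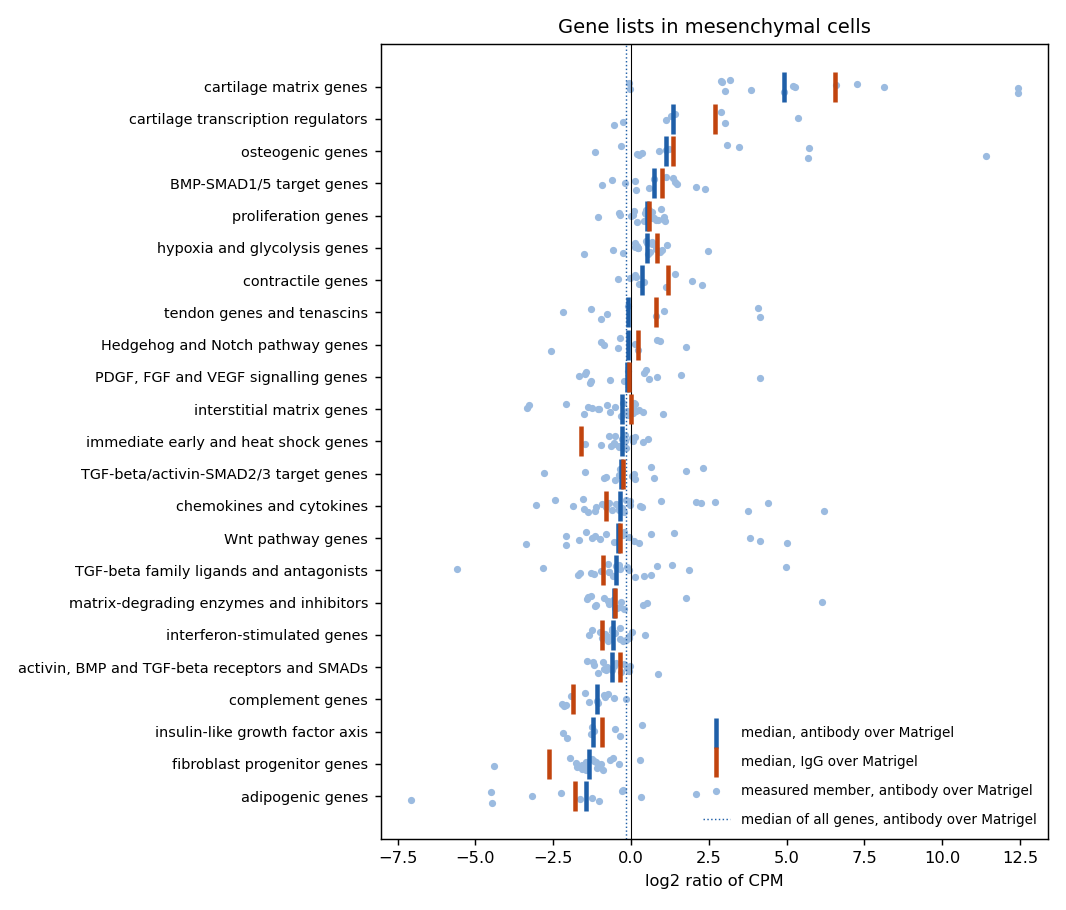
Gene lists in mesenchymal cells, with the log2 ratio of CPM on the x axis. Small points are measured members (antibody over Matrigel), the blue bar their median, the orange bar the median of IgG over Matrigel, and the dotted line the median of all genes (-0.16). The cartilage matrix median was 4.92 with the antibody, over 15 measured members, and 6.55 with IgG, over 18. The progenitor medians were -1.35 and -2.62.

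Single cells varied widely in their progenitor transcripts. The fibroblast progenitor list held a median of 1.64% of a mesenchymal cell's UMIs in the Matrigel library (quartiles 0.876% and 2.82%), 0.238% in the IgG library (0.167% and 0.360%) and 0.369% in the antibody library (0.217% and 1.76%). The antibody cells spread over both the low range of the IgG cells and the high range of the Matrigel cells. They were divided at 1% of UMIs, a value chosen after the spread had been seen. At or above 1% were 1528 of 2162 Matrigel cells (70.7%, 68.7 to 72.6), 158 of 1556 IgG cells (10.2%, 8.70 to 11.8) and 194 of 650 antibody cells (29.8%, 26.3 to 33.5). The division is a range and not a type, and 151, 20 and 15 cells lay between 0.9% and 1.1%. Progenitor-high cells thus made up 16.6%, 2.65% and 3.25% of all cells, and progenitor-low cells 6.87%, 23.5% and 7.64%.

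**Figure D4:**
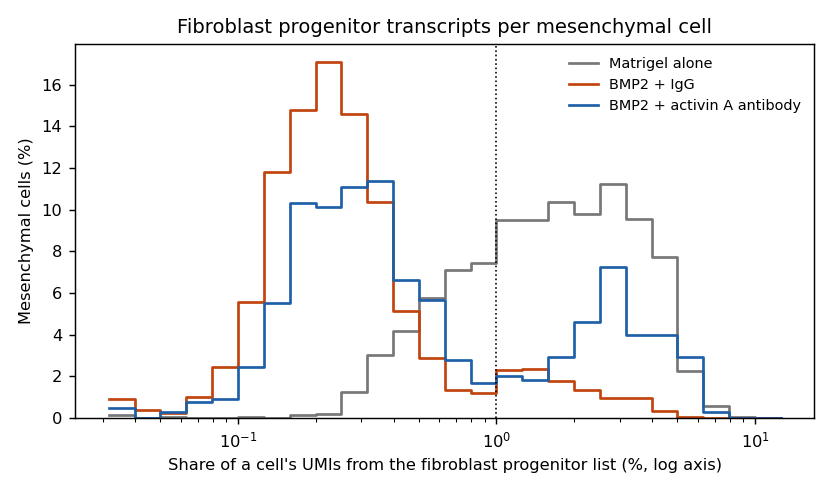
Mesenchymal cells of each library by the share of their UMIs from the fibroblast progenitor list (x axis, percent, log scale; y axis, percent of the library's mesenchymal cells). The dotted line marks 1%, at or above which lie 70.7% of Matrigel, 10.2% of IgG and 29.8% of antibody cells.

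Among progenitor-low cells, BMP targets, cartilage and bone genes were higher with the antibody than in Matrigel. The BMP target list had 6 of 12 members called higher and 0 lower than in progenitor-low Matrigel cells, at a median of 0.91, beside 4.5% of all genes called higher and 9.83% lower. Cartilage matrix had 13 of 15 higher, at a median of 4.51, and osteogenic genes 6 of 13 higher and 1 lower. Id3 was at 273, 694 and 740.0 CPM in this range and Inhba at 48.5, 722 and 917 CPM. Tnn was at 110.2, 893 and 884 CPM and Acan at 0.128, 1258 and 323 CPM. In this range Inhba with the antibody was 18.9 (17.1 to 21.0) times Matrigel, and Eln, at 1231, 186 and 17.6 CPM, was 70.1 times lower. Eln was also below IgG in this range, although the 2 BMP2 libraries were about level over the whole class. All 13 of 13 measured complement genes were called lower there, at a median of -2.22. Free RNA could set 6 of these genes in the class as a whole.

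In progenitor-high cells 0 BMP targets were called higher in the antibody library, and only 6 cartilage matrix genes were measured. The BMP targets had 0 of 10 members called higher and 2 lower, at a median of -0.24, beside 1.92% and 8.14% of all genes and an all-gene median of -0.17. Id3 was at 226, 236 and 244 CPM in this range and Id1, with few UMIs, at 32.6, 26.8 and 7.52 CPM. Cartilage matrix had 1 of 6 called higher and 1 lower. IgG over Matrigel had 7 of 10 cartilage matrix genes higher and 0 lower there, at a median of 3.11, and 2 of 10 BMP targets higher and 0 lower, at 0.26. Of all genes in this range, 2.99% were called higher and 6.76% lower for IgG over Matrigel. The IgG value of this range comes from 158 cells. Inhba was at 9.11, 18.4 and 2.09 CPM, a ratio of 0.229 (0.0731 to 0.550), whose direction turned when the cells were divided at 0.75% instead. Proliferation genes had 10 of 22 lower, at a median of -0.99, against 0.09 in the progenitor-low range. Interferon-stimulated genes had 4 of 18 higher and 0 lower, at a median of 0.68. The difference between the ranges was not tested. The medians of depth were 8158.5 and 12194.5 UMIs in progenitor-high cells of the Matrigel and antibody libraries and 11343 and 24717 in progenitor-low cells.

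Other lists had different counts in the 2 ranges than in the class as a whole. The SMAD2/3 targets had 0 of 15 higher and 5 lower than in Matrigel in progenitor-high cells, at a median of -0.68, and 1 higher and 2 lower of 15 in progenitor-low cells, at -0.39. Contractile genes had 0 of 8 higher and 4 lower in progenitor-high cells, at -0.98, and 1 higher and 1 lower of 10 in progenitor-low cells, at -0.015. Neither range held as many as the 4 higher calls of the whole class. Acta2, called higher over the whole class, was at 38.1, 27.8 and 6.27 CPM in progenitor-high cells. Its ratio there was 0.164 (0.0913 to 0.274). Complement genes, all lower in progenitor-low cells, had 3 higher and 4 lower of 13 in progenitor-high cells, at a median of 0.54. Among the lower ones were C1qa, C1qb and C1qc, which are also macrophage markers, with ratios of 0.301, 0.403 and 0.376. C3 was at 822, 1885 and 2841 CPM in progenitor-high cells, 3.46 (3.35 to 3.56) times Matrigel with the antibody. Against IgG, 21 of 22 proliferation genes were called lower and 0 higher in progenitor-high cells, at a median of -1.98, and 0 of 22 in either direction in progenitor-low cells, at 0.19. Of all genes, 3.38% were called higher and 5.55% lower than IgG in progenitor-high cells, and 2.885% and 5.47% in progenitor-low cells. Hypoxia and glycolysis genes had medians to IgG of -0.81 and -0.15 in the high and low ranges. Against Matrigel, 0 of 20 of them were called higher and 7 lower in progenitor-high cells, at a median of -0.85. In progenitor-low cells 1 was called higher and 1 lower of 20, at 0.12. The median of 0.52 over the whole class was thus reached in neither range.

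Macrophages of the antibody masses also differed from those of Matrigel masses. Among 12304 measured genes 739 (6.01%) were called higher and 970 (7.88%) lower, and the median log2 ratio of all was -0.13. IgG over Matrigel had 6.38% called higher and 5.51% lower, and antibody over IgG 2.11% and 4.23%. The 10 highest ratios at 100 CPM or more held Chil3 and Arg1, genes of macrophages activated by interleukin 4, the protease genes Ctsk and Mmp14, Spp1 and 3 globin genes. The 10 lowest held Retnla and several lectin receptor genes of resident macrophages.

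**Figure D5:**
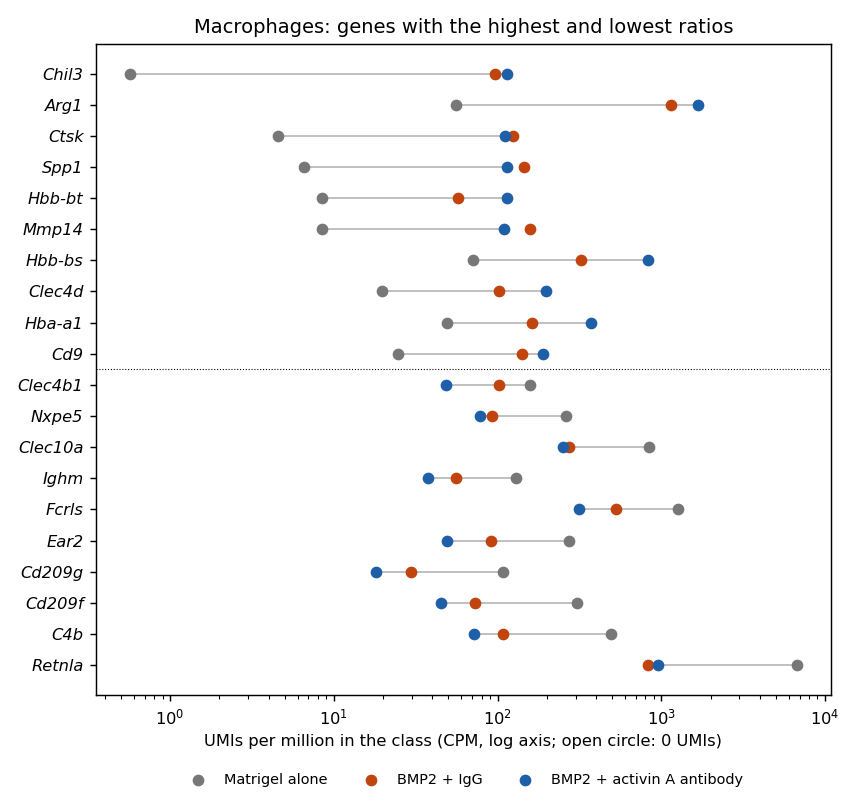
Level in macrophages of the 10 genes with the highest (above the dotted line) and the 10 with the lowest antibody over Matrigel ratios, as CPM on a log axis, with 1 point per library and a grey line joining Matrigel and antibody. Arg1 lies at 55.5, 1146 and 1684 CPM and Retnla at 6768, 830.1 and 955 CPM in the Matrigel, IgG and antibody libraries.

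Arg1, the enzyme that splits arginine, was at 55.5, 1146 and 1684 CPM, 30.4 (28.6 to 32.2) times Matrigel and 1.47 (1.44 to 1.5) times IgG. After thinning, 4.21%, 34.4% and 46.5% of macrophages held an Arg1 UMI and, of mesenchymal cells, 0.240%, 1.05% and 2.06%. Chil3, a secreted chitinase-like protein with close paralogs, was at 0.565, 96.2 and 114 CPM. Retnla, a secreted protein that is also a marker of alternative activation, went the other way at 6768, 830.1 and 955 CPM, 7.09 (6.98 to 7.20) times below Matrigel, and was found in 38.7%, 9.19% and 8.66% of thinned macrophages and 6.82%, 0.792% and 0.792% of thinned mesenchymal cells. Both BMP2 libraries had high Arg1 and low Retnla. Pdcd1lg2, the ligand PD-L2, was at 2.17, 62.0 and 46.9 CPM, Alox15, a lipoxygenase, at 1.84, 30.1 and 37.6 CPM and Mrc1, the mannose receptor, at 2147, 2236 and 2070.0 CPM. Of 15 alternative activation genes 9 were called higher and 3 lower, at a median of 1.21, beside 2.39 for IgG over Matrigel.

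Genes of resident macrophages were lower with the antibody for 10 of 19 measured members and higher for 2, at a median of -1.24. Cd209f, a lectin with near relatives in the genome, was at 308, 72.5 and 45.2 CPM and Stab1, a scavenger receptor, at 864, 371 and 279 CPM. Cbr2, a carbonyl reductase, was at 983, 376 and 339 CPM. All 3 were lower in both BMP2 libraries. Lyve1, the hyaluronan receptor of perivascular macrophages, was at 146, 38.9 and 123 CPM, with a ratio of 0.838 (0.794 to 0.885) to Matrigel and 3.15 (2.88 to 3.46) to IgG. Folr2, a folate receptor, was at 606, 239.9 and 338 CPM, and Cd163, the haemoglobin scavenger receptor, at 122, 276 and 428 CPM, highest with the antibody. Fcrls, an Fc receptor-like gene of tissue macrophages, was at 1267, 528 and 313 CPM, and Clec10a, a galactose-binding lectin, at 840.1, 272 and 249.8 CPM.

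Monocyte genes had 6 members called higher and 1 lower of 13, at a median of 0.75. Ly6c2, a surface marker of inflammatory monocytes, was at 1.08, 30.1 and 20.1 CPM, while Ccr2, their chemokine receptor, was at 726, 704 and 446 CPM with a ratio of 0.614 (0.598 to 0.630). Lipid-handling genes had 5 called higher and 0 lower of 18. Trem2, a lipid receptor, was at 105, 181 and 246 CPM, Cd9, a tetraspanin, at 24.8, 140.5 and 189.8 CPM and Apoe, the apolipoprotein, at 13650.0, 7782 and 7007 CPM. Trem2 and Cd9 were highest with the antibody.

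Osteoclast genes had 7 of 11 members called higher and 0 lower, at a median of 2.36, beside 2.60 for IgG over Matrigel. Acp5, the acid phosphatase of osteoclasts, was at 23.8, 154 and 122 CPM, 5.13 (4.65 to 5.66) times Matrigel. The 10 richest cells held 6.53%, 62.2% and 61.2% of its UMIs. Ctsk, cathepsin K, was at 4.57, 124 and 111 CPM, with 86.1% of the antibody UMIs in 10 cells. With each cell weighted equally the median of the list was 1.44. Nfatc1, the master factor of osteoclasts, was at 37.7, 58.5 and 36.8 CPM and Tnfrsf11a, the receptor RANK, at 51.9, 54.1 and 43.2 CPM. Neither of these was called. Mmp9, a gelatinase, was at 30.9, 106 and 233 CPM.

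Cytokine genes of the macrophages were higher. Of 33 chemokines and cytokines 18 were called higher and 2 lower, at a median of 1.21. Ccl2, which recruits monocytes, was at 229, 369.7 and 677 CPM and 2.96 (2.86 to 3.06) times Matrigel. Il1b was at 53.6, 196 and 200.5 CPM, and Ccl17 and Ccl22, which recruit T cells, were at 0.424, 66.6 and 64.3 and at 0.0942, 19.3 and 21.9 CPM. Dendritic cells make these chemokines too, and 7 dendritic markers summed to 61.4, 142 and 71.7 CPM in the macrophage class. Their part in these values was not tested. Antibody over IgG was 1.83 (1.77 to 1.89) for Ccl2 and 2.27 (2.21 to 2.33) times lower for Ccl24, an eotaxin at 220.4, 1156 and 509.7 CPM.

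The macrophages showed BMP targets as well, at low levels. Of 5 measured members 3 were called higher and 0 lower. Id1 was at 3.25, 14.1 and 16.4 CPM, 5.06 (3.89 to 6.67) times Matrigel, Id3 at 14.9, 27.8 and 40.7 CPM and Smad7 at 8.66, 38.7 and 35.1 CPM. The Id3 level in macrophages was below 10% of that in mesenchymal cells, where free RNA could set it. Mesenchymal cells hold much higher Id3, and their markers summed to 563, 663 and 190 CPM in the macrophage class, lowest with the antibody. Of 16 SMAD2/3 targets 3 were called higher and 2 lower than in Matrigel, at a median of 0.40. Against IgG 5 were called lower and 1 higher of 16, at a median of -0.51. Free RNA could set 6 of the 16, and without them the medians were 0.59 to Matrigel and -0.012 to IgG. Pmepa1, the feedback inhibitor named above, was at 24.2, 163 and 60.0 CPM, 2.49 (2.24 to 2.76) times Matrigel and 2.72 (2.53 to 2.92) times below IgG.

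Proliferation genes were lower in antibody macrophages, with 8 of 22 called lower and 0 higher at a median of -0.94. Mki67, a marker of cycling cells, was at 86.3, 48.9 and 41.1 CPM and Top2a at 97.1, 57.4 and 39.3 CPM. Hypoxia and glycolysis genes had 4 of 20 called higher and 0 lower, at a median of 0.72. Interferon-stimulated genes had 2 called higher and 1 lower of 18, beside 6.01% and 7.88% of all genes. Gbp2, an interferon-induced GTPase, was at 49.2, 239 and 331 CPM. MHC class II genes had 0 of 8 called higher and 0 lower, at a median of -0.45. H2-Eb1, a class II beta chain, was at 3681, 1014 and 2577 CPM and Cd74, the invariant chain, at 10590.0, 10980.0 and 8511 CPM. The globin genes Hbb-bs, Hbb-bt and Hba-a1 were among the highest ratios, with 97.0% of the antibody Hbb-bs UMIs in 10 cells, and summed erythroid markers stood at 132, 552 and 1328 CPM in the class.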

How the data were processed

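What the authors deposited were raw UMI counts for each gene in each cell barcode, unnormalized integers per the file headers. Per the labels, the libraries were 10x 3' v3. Cell Ranger 3.0.2 and the build mm10 come from the submitters' processing notes, while the sources used here give no annotation release and no cell-calling settings.

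Counts were summed per class and library and scaled to CPM (Python 3.11.15, numpy 2.4.6, scipy 1.17.1, pandas 2.3.3). Ratios have exact conditional binomial, levels Poisson and shares Clopper-Pearson 95% intervals. Where a sum was 0, 3 counts stood in as the floor. Scrublet, through scanpy 1.11.5, marked 4 antibody and 2 Matrigel cells, under 0.5%, so no doublets were removed, and removing the 285 and 681 highest scores was an alternative. The members and gene lists were chosen with earlier results of these data known. Genes named first were the 12 (macrophages 10) highest and lowest ratios at 100 CPM or more, leaving out classing, mitochondrial, ribosomal, sex-linked and unnamed genes and any under 10% of its level in another class. Of the 12 highest in mesenchymal cells and of the SMAD2/3 targets, 1 gene each is not reported here. List members were named by level, by change or for their known role, some after their values were seen. In mesenchymal cells 1627 genes were eligible after 13 had been left out for free RNA, and in macrophages 1607 after 2. Gene positions are from GENCODE M21. The code was tested on simulated counts. Chil3, C4b, the Cd209, globin, Ear2, Clec4b1 and Eno1 genes have near-identical copies, and their counts are uncertain.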

Additional observations from a re-analysis of the deposited data

Results flagged for a closer look

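Lists whose medians lay on opposite sides of 0 in mesenchymal cells and macrophages of the same libraries are given as values, and none of these differences was tested. The median log2 ratio of antibody over Matrigel was -0.31 in mesenchymal cells and 0.40 in macrophages for the SMAD2/3 targets. Proliferation genes had medians of 0.53 and -0.94 in that order. For interferon-stimulated genes the medians were -0.56 and 0.27, for immediate early and heat shock genes -0.27 and 0.32, and for chemokines and cytokines -0.34 and 1.21. The medians of all genes were -0.16 and -0.13, so the SMAD2/3, immediate early and chemokine medians of mesenchymal cells lay within 0.2 of them. In progenitor-high and progenitor-low mesenchymal cells the medians were -0.99 and 0.092 for proliferation genes. For interferon-stimulated genes they were 0.68 and -0.11 in these ranges. The sign of the whole mesenchymal class was thus not held in both ranges for either list.

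Cells outside both classes carried lymphocyte transcripts that the gene comparisons did not use. In the antibody library 11.6% of all cells were in neither class and held at least 2 UMIs of Cd3 genes, against 0.314% in the Matrigel library. For Cd79a, Cd79b and Ms4a1 the shares were 8.63% and 0.0108%. Within the compared classes, cells with at least 2 UMIs of these lymphoid genes made up 2.62% of antibody and 0.370% of Matrigel mesenchymal cells, and 3.62% and 0.615% of macrophages. Their part in the gene ratios is covered only partly by leaving out cells with UMIs of another type. That alternative dropped mesenchymal cells with a UMI of Ptprc or Tyrobp, and macrophages with a UMI of Cd3e, Cd79a or Cd79b. It did not use Cd3d, Cd3g or Ms4a1.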

How the results depend on the processing

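With 1 library per group, neither the spread between animals nor a batch can be told apart from the treatment, and counts alone set the intervals. No paired analysis was possible because each group had 1 library. Leaving out a replicate was not possible either, and no minimum on UMIs was not run, since ratios of 0 have no value. The share of macrophages, -11.0 points, became 2.13 points with at least 2000 UMIs and 1000 genes and 2.34 with lymphoid cells out of the total. It became -12.8 with cells that held UMIs of another type taken out of the class but kept in the total. The share of mesenchymal cells, -12.5 points, became -10.4 with cells of other-type UMIs out of the class but in the total. It became -9.90 with lymphoid cells out of the total. Called at a ratio of 1.5, mesenchymal cells had 1297 genes higher and 2899 lower, and macrophages 1336 and 2183. Scaling by the median of ratios moved all log2 ratios up by 0.11 in both classes, took the share of higher among called genes from 31.8% to 38.5% in mesenchymal cells and from 43.2% to 50.3% in macrophages, and turned the median of the tendon genes to 0.0079. Of 352 alternative values for 44 named gene ratios, 0 changed direction and 14 moved by more than 1.5 times. These genes were picked for the most extreme ratios in the same data, so a change of direction was unlikely. The count does not speak for genes with smaller ratios. On the log2 scale, weighting cells equally took Col4a1 from -2.71 to -1.94, Eln from -3.33 to -2.72, Lmo2 from -2.75 to -2.08, Lpl from -2.23 to -1.65, Nov from -2.78 to -2.07, Opcml from -2.28 to -1.7 and macrophage Ctsk from 4.61 to 2.96. Mesenchymal Hbb-bs, 5.68, became 3.63 with cells weighted equally, 2.9 without the highest Scrublet scores and 6.57 with at least 2000 UMIs and 1000 genes, where macrophage Hbb-bt went from 3.75 to 3.11. Dlk1 went from -4.42 to -5.81 without the highest Scrublet scores, and Col2a1 and Ibsp from 12.4 to 11.6 and from 11.4 to 10.7 without cells of other-type UMIs. Of 390 for 39 list medians, 1 changed direction and 4 moved that far. Inhba in progenitor-high cells, -2.12 on the log2 scale, became 0.64 when cells were divided at 0.75% and -0.97 at 1.5%. That division, and leaving out shared barcodes, were alternatives chosen after seeing the data. The causes were not tested.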

Other observations

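Other cell types in neither class also differed in number. Of all cells, those in neither class with at least 2 UMIs of neutrophil markers were 0.0434%, 1.81% and 1.56% in the order Matrigel, IgG and antibody. For the markers of basophils and mast cells the shares were 0.0108%, 1.28% and 0.955%, so both granulocyte groups were more frequent in the 2 BMP2 libraries. Cells with endothelial markers were at 0.184%, 0.806% and 1.79%, and those with natural killer cell markers at 0.401%, 2.23% and 1.69%. At least 2 UMIs of adipocyte markers were found in 13 Matrigel cells of neither class, or 0.141% of the library, and in 0 antibody cells of neither class. Set against 3 counts, 0 allows up to 0.0503% of the 5967 antibody cells, and 1 or more such UMIs were found in 0.462% of antibody mesenchymal cells.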
